A study of Mus musculus with 8 samples.

Results

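The cytosolic ribosomal protein genes encode the protein part of the ribosome outside mitochondria. They were taken by symbol: Rps or Rpl followed by a number, with an optional suffix a, x, l or a1, together with Rpsa, Rplp0, Rplp1 and Rplp2. The ribosomal S6 kinase genes and pseudogenes were left out. Of 55417 gene rows in the count files, 84 had such a symbol and 81 of these were protein-coding in the GENCODE annotation: 32 of the small subunit, 46 of the large subunit outside its stalk and the 3 stalk genes Rplp0, Rplp1 and Rplp2. The study measured RNA in flow-sorted astrocytes of 4 wild-type mice at postnatal day 29, with no treatment named in the labels. Mice 2 and 3 were female and mice 1 and 4 male, and both regions were sampled in each, which gives 4 libraries per region from separate animals. A library number below is the number of its mouse. The sources used here do not name the gate or reporter of the sort.

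Ribosomal proteins fold and hold the ribosomal RNA and are needed in equal numbers for each ribosome, apart from the stalk proteins P1 and P2, which enter as dimers. The messenger RNAs of vertebrate ribosomal proteins start with a C followed by a run of pyrimidines, the terminal oligopyrimidine or TOP motif, through which the kinase mTOR and the RNA-binding protein LARP1 set their translation and stability. Astrocytes, the glial cells that clear neurotransmitters and contact synapses and vessels, also carry ribosomes into their fine processes.

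Gene counts summed to 2484717 to 4060891 per library. The libraries read transcript ends, so a level in CPM (counts scaled to a common library total) needs no division by transcript length. CPM refer to library sizes after TMM scaling, which takes a trimmed mean of the genes' log ratios as the zero. All 12 astrocyte markers were detected, and together they took 3.35 to 3.82% of cortical and 1.83 to 2.48% of subcortical gene counts. The list went both ways: Slc1a2, Slc1a3, Glul and Gfap were called higher in cortical libraries and Aqp4 lower (log2 fold change -1.12, SE 0.18, edgeR adjusted p = 0.00023). Markers of other cells were present and differed by region. The summed share of 12 neuron markers ran from 0.0322 to 0.0687% in cortical and from 0.00836 to 0.0119% in subcortical libraries, with Camk2a, Nrgn and Slc17a7 higher and Nefl lower in cortical ones. That of 12 oligodendrocyte lineage markers ran from 0.116 to 0.165% and from 0.240 to 0.548%, with 8 of 11 tested lower in cortical libraries, Mag, Mog and Olig1 among them. Microglia and macrophage markers ran from 0.0180 to 0.0387% and from 0.0126 to 0.0175%, with C1qa, Csf1r and Cx3cr1 of 10 tested higher. Vascular markers ran from 0.0503 to 0.112% and from 0.0345 to 0.134%, with 0 of 8 tested called and Tek and Cdh5 at 0 in every library. Others of this list were abundant. The cortical mean of Rgs5 was 490 ± 132 CPM and its subcortical mean 404 ± 273 CPM (SD, n = 4). In the same order, Pdgfrb had means of 119 ± 49 and 78.6 ± 29.8 CPM, and Vtn 108 ± 45 and 110 ± 56 CPM. Ependymal and progenitor markers ran from 0.0474 to 0.0696% and from 0.0190 to 0.0894%, with 4 of 8 tested higher and 1 lower in cortical libraries. The part of these cells in the results below was not tested.

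Ribosomal protein transcripts took a larger share of the gene counts in cortical than in subcortical astrocytes. Over all 81 genes the share was 0.752, 0.720, 0.692 and 0.572% in cortical libraries 1 to 4, and 0.477, 0.381, 0.542 and 0.458% in subcortical libraries 1 to 4. The lowest cortical library, that of mouse 4, lay above the highest subcortical one, that of mouse 3, so the groups did not overlap. The means were 0.684 ± 0.079% and 0.464 ± 0.066% (SD, n = 4), a 1.47-fold difference, and the fold within a mouse was 1.58, 1.89, 1.28 and 1.25 in mice 1 to 4. In bulk samples, fewer cells of a type and less RNA per cell cannot be told apart. No p is attached to these sums, because the genes were chosen with earlier results of these data known.

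A share depends on what the other genes take. The 10 most abundant genes outside the family took 20.7 ± 1.8% of the counts in cortical libraries and 31.0 ± 5.3% in subcortical ones (SD, n = 4). They took most in subcortical library 2 (37.6%), and mouse 2 had the largest fold in the ribosomal protein share. With these 10 left out of the total, the ribosomal protein share was 0.862 ± 0.083% against 0.671 ± 0.053% (SD, n = 4), 1.28-fold. On the TMM scale, which sets the typical gene to no change, the summed level was 6604, 6825, 6545 and 5598 CPM in cortical and 5374, 4547, 5164 and 4890 CPM in subcortical libraries 1 to 4. The regions again did not overlap, with cortical library 4 and subcortical library 1 the closest. The means were 6393 ± 543 and 4994 ± 358 CPM (SD, n = 4), 1.28-fold, with 1.23, 1.501, 1.27 and 1.14-fold in mice 1 to 4. The difference was thus smaller on this scale than as a share of raw totals in each of the 4 mice.

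**Figure D1:**
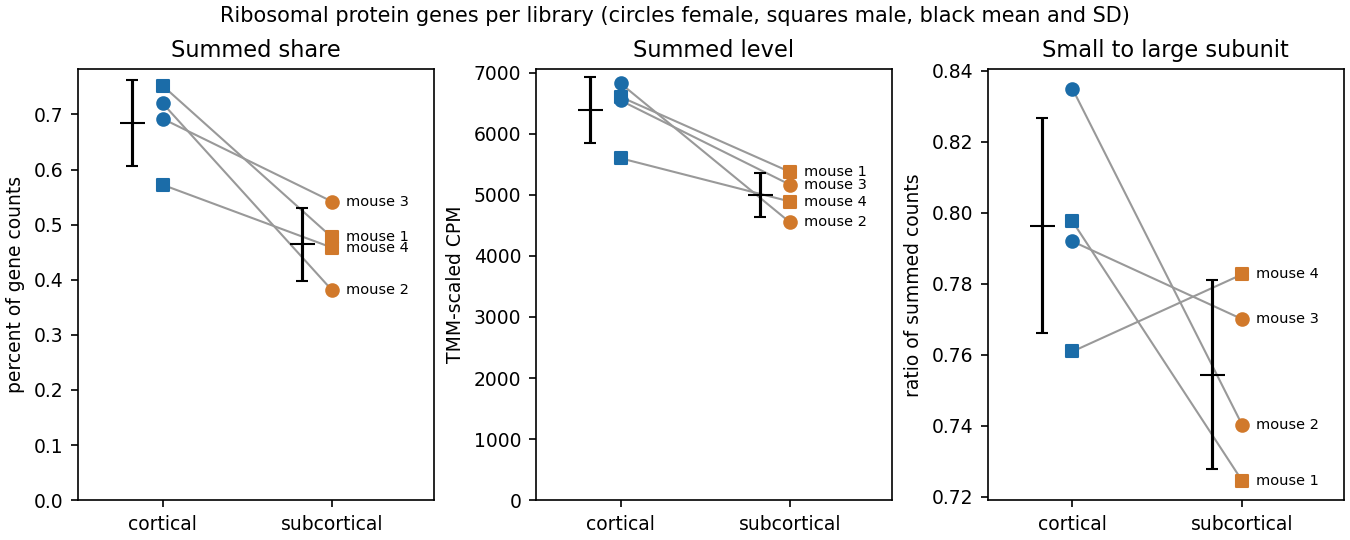
Summed counts of the 81 ribosomal protein genes per library as percent of gene counts (left), as TMM-scaled CPM (middle) and as the ratio of small to large subunit counts (right, axis not starting at 0). Lines join the libraries of a mouse and black marks give mean and SD. Every line falls from cortical to subcortical in the left and middle panels, and mouse 4 rises in the right panel.

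The 2 subunits and the stalk differed in the same direction. Small subunit genes summed to 2837 ± 293 CPM in cortical against 2146 ± 150 CPM in subcortical libraries (SD, n = 4), 1.32-fold. Large subunit genes outside the stalk summed to 3233 ± 226 and 2625 ± 202 CPM (SD, n = 4), 1.23-fold. The 3 stalk genes summed to 323 ± 42 and 223 ± 19 CPM (SD, n = 4), 1.45-fold. The ratio of small to large subunit counts, stalk included, which no library scaling can move, was 0.798, 0.835, 0.792 and 0.761 in cortical and 0.725, 0.740, 0.770 and 0.783 in subcortical libraries 1 to 4. It was higher in the cortical library of 3 mice and lower in that of mouse 4, and the groups overlapped. Without the 3 most abundant members the ratio was 0.6996 ± 0.018 and 0.687 ± 0.043 (SD, n = 4).

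Single genes varied widely around this difference. Of the 81 genes, 74 passed the filter on low counts and were tested with edgeR's quasi-likelihood test, 4 libraries against 4, with Benjamini-Hochberg adjustment over all 11781 genes tested. This fit did not use the pairing of libraries by mouse. At an adjusted p under 0.05, 8 of the 74 (10.8%) rose in cortical astrocytes and 0 fell. Over all genes tested, 3.42% were called higher and 3.39% lower, 6.81% in all. The 8 were the small subunit genes Rps20 and Rps25, the large subunit genes Rpl22, Rpl13, Rpl34, Rpl32 and Rpl9, and the stalk gene Rplp1. Without single libraries the number called ran from 3, without cortical library 2, to 10, without cortical library 4. It was 5 without cortical library 1 or 3, and 4 without subcortical library 2. A fit of all libraries with the mouse as a replicate block called 10 higher, the 8 with Rps12 and Rps21, and 0 lower. There 3.72% of all genes were called higher. On raw library totals, without TMM factors, 17 were called higher and 0 lower, where 5.79% of all genes were called higher and 2.07% lower, and the median of all genes moved from -0.01 to 0.19. The fitted log2 fold change on the TMM scale was above 0 for 59 of the 74 (79.7%, against 49.1% of all genes), with a median of 0.33 against -0.01 over all genes. At an unadjusted p under 0.05, 21 of the 74 (28.4%) were higher and 0 lower, where 8.85% of all genes were higher.

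**Figure D2:**
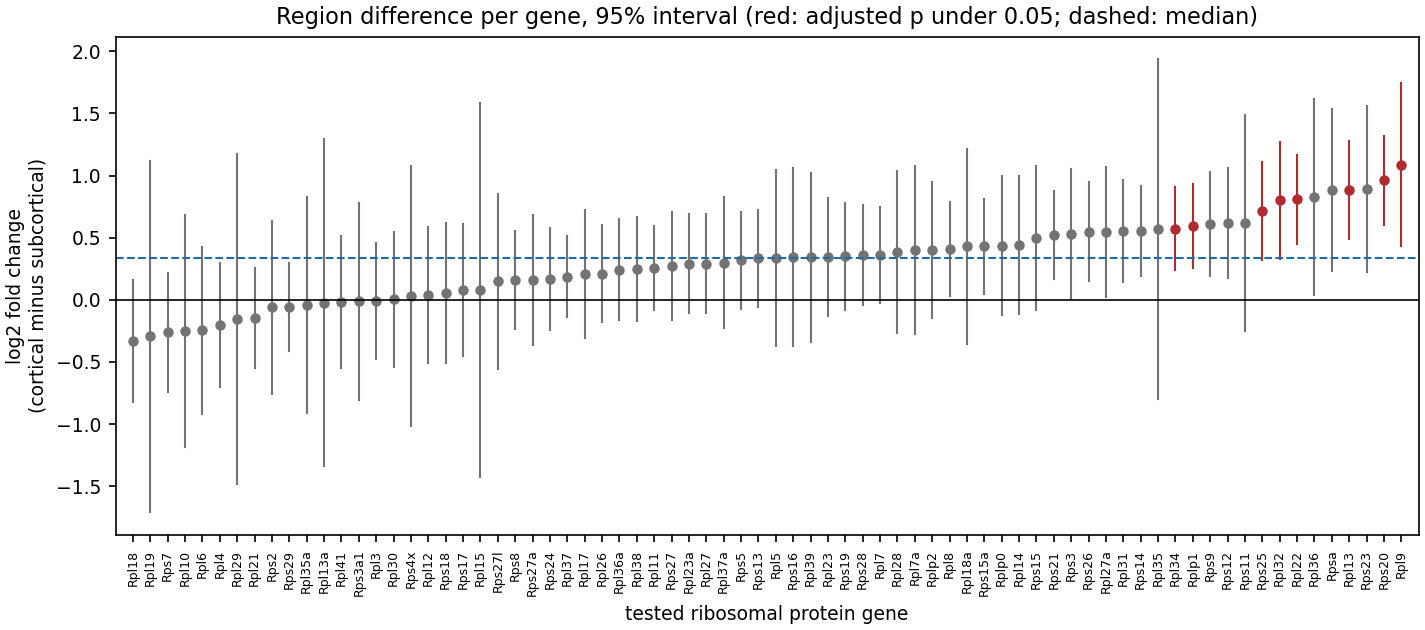
Fitted log2 fold change, cortical minus subcortical, of the 74 tested ribosomal protein genes in ascending order, with 95% intervals. The 8 called genes are red, the dashed line is the median of 0.33, and 15 genes lie below 0 without a call.

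The call was firmest for Rps20 (ENSMUSG00000028234), a protein of the small subunit head. It stood at 165, 177, 197 and 148 CPM in cortical libraries 1 to 4 and at 88.2, 78.8, 91.6 and 93.9 CPM in subcortical libraries 1 to 4. Every cortical library lay far above every subcortical one, with the 2 groups separated by more than the spread within either. The log2 fold change was 0.96 (SE 0.17, 95% interval 0.60 to 1.32, edgeR adjusted p = 0.00083), 1.95-fold.

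Rpl22 (ENSMUSG00000028936), an RNA-binding large subunit protein that is known to be dispensable for general translation in mice, stood at 181, 161, 156 and 146 CPM in cortical and at 108.6, 88.4, 84.6 and 86.7 CPM in subcortical libraries 1 to 4. The regions did not overlap, and the male mouse 1 was highest in both. The log2 fold change was 0.81 (SE 0.17, edgeR adjusted p = 0.0042). Rpl13 (ENSMUSG00000000740), another large subunit protein gene, stood at 196, 156, 211 and 126 CPM in cortical and at 87.4, 90.3, 87.4 and 107.5 CPM in subcortical libraries 1 to 4. Its cortical libraries spread more than its subcortical ones, and mouse 4 had both the lowest cortical and the highest subcortical level. The log2 fold change was 0.88 (SE 0.19, edgeR adjusted p = 0.0042). These 3 genes, Rps20, Rpl22 and Rpl13, kept the call without any single library, with edgeR adjusted p of at most 0.0069, 0.023 and 0.031.

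The other 5 calls were less stable. Rps25 (ENSMUSG00000009927), a small subunit protein that some viral internal ribosome entry sites need, stood at 101.5, 116.5, 98.3 and 113.0 CPM in cortical and at 71.99, 49.98, 73.7 and 65.5 CPM in subcortical libraries 1 to 4. Rplp1 (ENSMUSG00000007892), the acidic stalk protein P1 that helps to recruit elongation factors, stood at 212, 235, 236 and 210 CPM against 160, 123, 149 and 158 CPM. For both genes the regions did not overlap, and subcortical library 2 was the lowest of all. The log2 fold changes were 0.71 (SE 0.19, edgeR adjusted p = 0.023) for Rps25 and 0.60 (SE 0.16, edgeR adjusted p = 0.025) for Rplp1. Rps25 lost the call without cortical library 2 or 4 or subcortical library 2 or 4, and Rplp1 without cortical library 2 or 3 or subcortical library 2, with edgeR adjusted p of up to 0.077 and 0.086.

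Rpl34 (ENSMUSG00000062006) stood at 228, 195, 217 and 192 CPM in cortical and at 132, 144, 132 and 151 CPM in subcortical libraries 1 to 4. Rpl32 (ENSMUSG00000057841) stood at 97.0, 87.6, 119.8 and 62.38 CPM against 60.3, 62.47, 43.0 and 45.7 CPM. Rpl9 (ENSMUSG00000047215), a protein near the factor-binding site of the large subunit, stood at 45.2, 47.7, 30.13 and 37.3 CPM against 29.96, 16.8, 18.9 and 10.3 CPM. Rpl34 was clearly apart between the regions, Rpl9 only by the gap between cortical library 3 and subcortical library 1, and Rpl32 overlapped, through cortical library 4 and subcortical library 2. The log2 fold changes were 0.57 (SE 0.16), 0.80 (SE 0.23) and 1.09 (SE 0.31), with edgeR adjusted p of 0.030, 0.033 and 0.038. Without single libraries Rpl34 kept the call in 2 of 8 fits (lost without cortical library 1, 2 or 3 or subcortical library 1, 2 or 3), Rpl32 in 3 of 8 (lost without cortical library 1, 2 or 3 or subcortical library 3 or 4) and Rpl9 in 2 of 8 (lost without cortical library 1, 2 or 4 or subcortical library 2, 3 or 4). The highest edgeR adjusted p was 0.100, 0.168 and 0.119. Rpl34 also missed the threshold without the low-count filter (edgeR adjusted p = 0.0503). All 8 called genes were higher in the cortical library of each of the 4 mice.

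**Figure D3:**
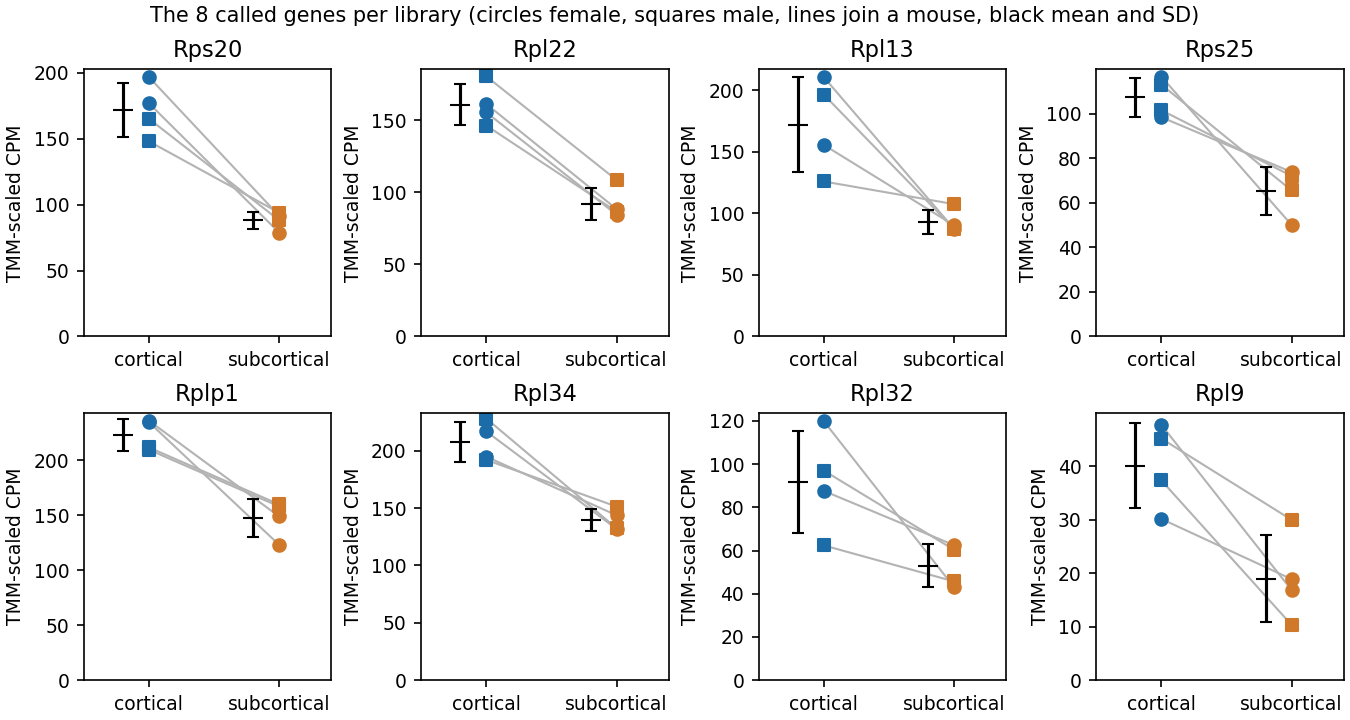
TMM-scaled CPM of the 8 called genes in each library, in order of p, on axes from 0. Lines join the libraries of a mouse, circles are female and squares male, and black marks give mean and SD. All lines fall from cortical to subcortical, with the ranges overlapping only for Rpl32.

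Several abundant genes lay just outside the threshold. Rps14, a protein of the small subunit platform, stood at 257, 366, 303 and 236 CPM in cortical and at 200, 183, 183 and 224 CPM in subcortical libraries 1 to 4. Rps21, a small protein of the small subunit, stood at 319, 315, 310 and 250.3 CPM against 244, 187, 232 and 168 CPM. Neither gene overlapped between regions, and in both the cortical library of mouse 4 was the lowest cortical one. The log2 fold changes were 0.55 (SE 0.17, edgeR adjusted p = 0.057) for Rps14 and 0.52 (SE 0.17, edgeR adjusted p = 0.072) for Rps21, and DESeq2 called both, with adjusted p of 0.017 and 0.022. With the mouse as a replicate block Rps21 was called as well (edgeR adjusted p = 0.043). Rps23, a decoding-centre protein, and Rpsa, which is also known as a laminin receptor, were among the 5 largest log2 fold changes, at 0.89 (SE 0.32) and 0.88 (SE 0.31), but missed the threshold (edgeR adjusted p = 0.118 and 0.109). Rps23 was at 31.3 ± 12.8 CPM in cortical against 16.9 ± 2.5 CPM in subcortical libraries and Rpsa at 29.3 ± 5.3 and 15.8 ± 5.1 CPM (SD, n = 4). In 15 of the 74 tested genes (20.3%), Rps14, Rps21, Rps23 and Rpsa among them, every cortical library lay above every subcortical one, against 6.54% of all genes tested. In 0 of the 74 every cortical library lay below, against 5.64%. In 31 (41.9%) the cortical library was higher in all 4 mice, against 13.3% of all genes, and in 1 it was lower in all 4.

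Other abundant members were not called either. Rpl37, the most abundant gene of the family, stood at 353, 354, 330 and 349 CPM in cortical and at 255, 289, 317 and 356 CPM in subcortical libraries 1 to 4. Its cortical libraries were close together, while its subcortical ones ran from well below them to above them all. The log2 fold change was 0.19 (SE 0.16, 95% interval -0.14 to 0.51). Rpl26 was at 199 ± 47 and 172 ± 29 CPM, and Rps29 at 154 ± 21 and 160 ± 15 CPM (SD, n = 4). Rpl4, an abundant core protein of the large subunit, stood at 140, 194, 147 and 109 CPM against 250, 166, 175 and 90.5 CPM, and was higher in the cortical library of mice 2 and 4 only. Its log2 fold change of -0.20 had an interval of -0.70 to 0.29. Among the 10 most abundant members, Rps26 and Rpl23a had log2 fold changes of 0.55 (SE 0.19, edgeR adjusted p = 0.103) and 0.29 (SE 0.19).

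The lowest fitted differences were those of Rpl18 (-0.33, SE 0.24), Rpl19 (-0.29, SE 0.68), Rps7 (-0.26, SE 0.23), Rpl10 (-0.25, SE 0.45) and Rpl6 (-0.24, SE 0.32). None of these 5 was called, with edgeR adjusted p of 0.543 to 0.894. Rpl18 was at 55.9 ± 14.1 CPM in cortical against 70.2 ± 15.9 CPM in subcortical libraries, and Rps7, which also binds the p53 regulator MDM2, at 43.8 ± 5.8 and 52.6 ± 10.6 CPM (SD, n = 4). In both the ranges overlapped. The intervals ran from -0.82 to 0.16 for Rpl18 and from -0.74 to 0.22 for Rps7. That of Rpl19, at 7.06 CPM on average, ran from -1.71 to 1.12. These genes were picked for their low fitted values.

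The stalk genes are a small set with a shared place on the ribosome. Rplp0, the scaffold of the stalk, was at 32.3, 57.1, 63.5 and 37.1 CPM in cortical and at 29.5, 31.2, 45.4 and 33.99 CPM in subcortical libraries 1 to 4. Rplp2, the partner of Rplp1, was at 50.1, 74.0, 52.6 and 35.2 CPM against 47.4, 43.7, 43.3 and 26.5 CPM. Both overlapped between regions but were higher in the cortical library of all 4 mice, by little in mice 1 and 4 for Rplp0. The log2 fold changes were 0.44 (SE 0.27) and 0.40 (SE 0.26), with edgeR adjusted p of 0.458 and 0.5005, so that Rplp1 alone of the 3 was called. Whether it differed from the other 2 was not tested.

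On a scale that sets the summed ribosomal protein counts of each library equal, chosen after the data were seen, the question becomes which members differed beyond the family as a whole. Then only Rps20 of the 74 was called higher (edgeR adjusted p = 0.035) and 0 lower, against 1.81% and 8.80% of all genes. The median of the family was -0.033 and that of all genes -0.36. This scale centres the family and moves the other genes down. The 8.80% is therefore no measure for the 0 members called lower. The other 7 called genes missed the threshold there.

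Promoter windows were looked up in RefSeq (GRCm38.p6), where 61 of the 81 genes had an entry. A C at the annotated start followed by at least 4 pyrimidines was found in 13 of the 61 (21.3%), against 3.01% of 27025 genes in the table. A pyrimidine run of 8 or more bases over the start was found in 27.9%, against 4.59%. The letters TATAAA, searched on the gene's strand 40 to 20 bases before the start, were in 0 of the 61 and in 2.25% of all. An annotated start can differ from the start used in these cells. The windows below show the 15 bases before and the 15 from the start, with the pyrimidine run over the start in capitals. Rps21 (chr2:180257364-180257393, plus strand), Rps6 (chr4:86857353-86857382, minus strand) and Rps10 (chr17:27635230-27635259, minus strand) are shown as members with the C and pyrimidine start. Rpl34 (chr3:130730323-130730352, minus strand), Rpl13 (chr8:123102335-123102364, plus strand) and Rpl22 (chr4:152325711-152325740, plus strand) are shown as called genes without it. The run of Rpl34 is 20 bases long and begins before the window.
Rps21: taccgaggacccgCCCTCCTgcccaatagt
Rps6: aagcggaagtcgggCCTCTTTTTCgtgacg
Rps10: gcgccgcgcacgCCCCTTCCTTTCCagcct
Rpl34: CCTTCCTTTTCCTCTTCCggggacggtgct
Rpl13: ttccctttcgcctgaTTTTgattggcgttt
Rpl22: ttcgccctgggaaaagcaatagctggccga
The run crosses the annotated start with a C at the start base in the first 3 windows, a T in Rpl34 and Rpl13, and not at all in Rpl22, whose start base is a G. The 11 tested genes with the C and pyrimidine start had a median log2 fold change of 0.38 and 0 calls, and the 43 tested genes without it had 0.34 and 5 calls. Of all 74 tested members 10.8% were called higher, and of all genes 3.42%. The median level was 34.7 CPM in the 11 and 63.0 CPM in the 43. The called genes Rps20, Rpl32 and Rplp1 had no entry. A difference between the 2 groups was not tested.

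A ribosomal protein gene can be undercounted when its transcript end is shared with a copy, because reads that match several genes may be dropped or split. The row for reads that align in several places was 0 in every library, so the files do not show how many there were. In the GENCODE transcripts, the last 300 bases of 52 of the 81 genes held at least 1 stretch of 50 bases that another gene's transcript also holds, and in 36 genes more than 50% of such stretches were shared. The median level was 43.4 CPM in these 36 and 70.1 CPM in the other 45. The annotation used is not the one the authors counted with.

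The 7 genes that failed the low-count filter fell into 2 kinds. Rps6, the small subunit protein that S6 kinases phosphorylate, had 19 counts over all 8 libraries. Rps10, which sits at the mRNA entry, had 23, Rpl10a, a protein of the flexible L1 stalk, had 64, and Rpl24, which forms a bridge between the subunits, had 0. These 4 are core proteins of the ribosome. Rps6, Rps10, Rpl10a and Rpl24 shared 83.3, 67.7, 86.9 and 81.3% of their end stretches with other genes. Of the members that passed the filter, which leaves out levels near 0, 14 had more than 80% shared, at 5.56 to 152 CPM. Among them, Rpl36a (100% shared) was at 149 CPM and Rps12 (94.4%) at 109.6 CPM. These examples were chosen after their values were seen. The end of Rpl24 was covered over 58.3% of its length by Gm28037 on the same strand and that of Rps10 over 70.3% by RPS10-NUDT3. Pseudogene rows named after Rps10 held 284 counts and those named after Rps6 held 72, both above the gene's own count. The level near 0 of these 4 is given as what the files list, and its source was not tested.

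The other 3 were the paralogs Rpl10l, Rpl39l and Rpl3l, with 1, 0 and 52 counts and no shared stretch. Rpl10l and Rpl39l are known from testis and Rpl3l from heart and skeletal muscle. A count of 0 allows 0.70 to 1.44 CPM in a single library, for counting error only. Of the 52 counts of Rpl3l, 30 came from cortical library 4, where it stood at 7.23 CPM, and 3 libraries had 0. Their widely expressed partners Rpl3, Rpl10 and Rpl39 were at 60.7, 13.6 and 20.6 CPM on average, with log2 fold changes of -0.01 (SE 0.23), -0.25 (SE 0.45) and 0.34 (SE 0.33). A further pair of paralogs was Rps27 with Rps27l, at 88.6 and 21.9 CPM, and log2 fold changes of 0.27 (SE 0.21) and 0.15 (SE 0.34).

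**Figure D4:**
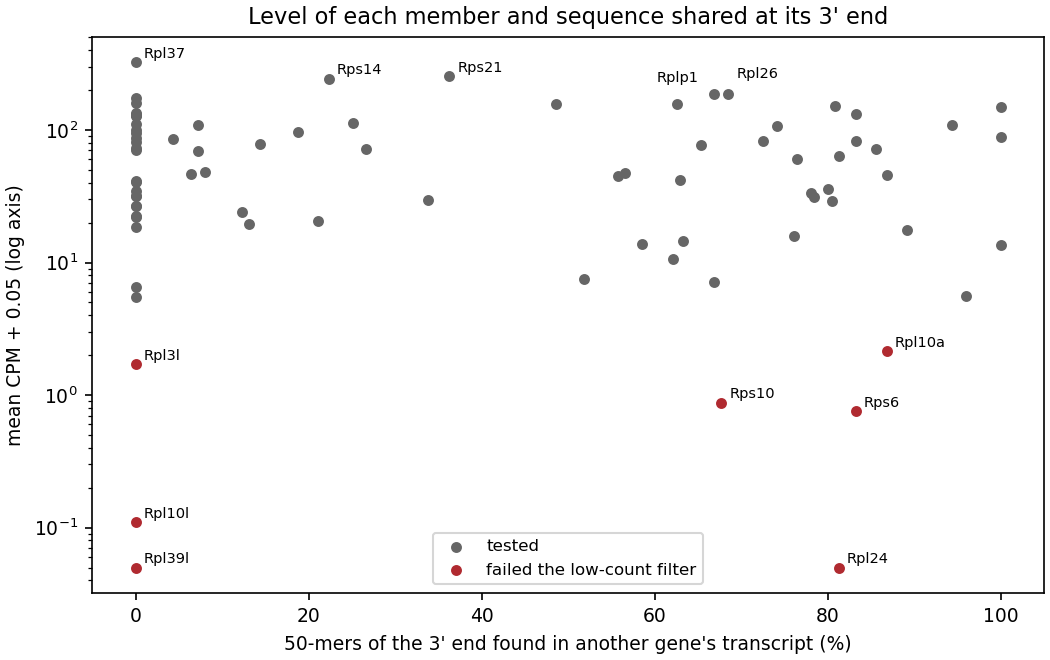
Mean CPM over the 8 libraries plus 0.05, on a log axis, against the percent of 50-base stretches in the last 300 transcript bases that another gene's transcript also holds, for the 81 genes. Red points failed the low-count filter. Rps6, Rps10, Rpl24 and Rpl10a lie at 67.7 to 86.9%, and Rpl3l, Rpl10l and Rpl39l at 0.

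The family was also split by whether the transcript end is shared. The 26 tested genes without a shared stretch had a median log2 fold change of 0.37, with 22 above 0 and 4 calls, Rps20, Rpl22, Rpl34 and Rps25. In 3 of these 26, Rps25, Rpl31 and Rpl5, another gene lay over the end on the opposite strand, and the other 23 had a median of 0.35, with 19 above 0 and 3 calls. The 48 with a shared stretch had 0.29, with 37 above 0 and 4 calls, Rpl13, Rpl32, Rpl9 and Rplp1. The summed level of the genes without a shared stretch was 2365 ± 149 CPM in cortical against 1844 ± 118 CPM in subcortical libraries (SD, n = 4), 1.28-fold and without overlap. The end of Rps25 was covered over 68.7% by Ccdc84, on the opposite strand, and that of Rpl32 over 15.3% by Cand2. The sources used here do not say whether counting used the strand. How these overlaps affected the counts of Rps25 and Rpl32 was not tested. For Rpl9, rows of pseudogenes held 251 counts beside its own 847.

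The 4 members on the X chromosome were Rps4x, Rpl10, Rpl36a and Rpl39. Rpl36a was at 162 ± 40 CPM in cortical against 137 ± 24 CPM in subcortical libraries (SD, n = 4) with a log2 fold change of 0.24 (SE 0.20), and Rps4x at 10.7 ± 5.0 and 10.4 ± 4.0 CPM with 0.03 (SE 0.50). The transcribed pseudogene Rps4l, outside the family by biotype, held 922 counts against 292 of Rps4x. None of the 4 was called for region, sex or their interaction.

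Female and male mice were compared on counts summed per mouse, 2 against 2. With edgeR's quasi-likelihood test 0 of 77 tested members were called, against 0.0373% of all genes, and DESeq2 also called 0. At an unadjusted p under 0.05 the count was 1, Rplp0, with a log2 difference female minus male of 0.65 (SE 0.26, edgeR adjusted p = 1.00), where 3.73% of all genes passed. Of all 77, 40 were above 0, with a median of 0.01.

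The region difference of the 2 sexes was tested as an interaction, with 2 libraries per sex and region and without the mouse as a block. With edgeR 0 of 74 members were called, as were 0% of all genes, and DESeq2 called 0 members. The unadjusted p was under 0.05 for Rpl36a and Rps2 (3.42% of all genes). Rpl36a had a region log2 fold change of 0.69 in females and -0.23 in males, and Rps2, a decoding-site protein, -0.71 in females and 0.65 in males. Both had an edgeR adjusted p of 1.00 for the interaction. Within each sex the family's median region difference was 0.39 in females, with 63 of 74 above 0 (49.4% of all genes), and 0.24 in males, with 51 of 74 above 0 (49.5% of all genes). Rps20 was the single member called in females, where 1.43% of all genes were called higher, with 1.13 against 0.78 in males. In males 0 were called higher, against 1.26%.

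Genes that work with the ribosome were taken as lists. Among 9 tested partners outside the symbol rule, which hold further ribosomal proteins, paralogs and associated factors, 0 were called and the median log2 fold change was 0.18. Over all genes tested, 3.42% were called higher and 3.39% lower. Rack1, a scaffold on the small subunit, was at 86.5 ± 22.2 and 71.4 ± 14.3 CPM, Fau, the precursor of a small subunit protein, at 32.8 ± 6.5 and 31.3 ± 5.2 CPM, and Rpl22l1, the paralog of Rpl22, at 37.8 ± 12.1 and 25.4 ± 4.4 CPM (SD, n = 4). The largest of the 9 was Rps27rt, a retrotransposed copy gene, at 0.96 (SE 0.40, edgeR adjusted p = 0.201). Rpl36al, a paralog of Rpl36a, had 3 counts over all 8 libraries and was not tested.

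Of 23 tested translation factors and other genes with TOP messenger RNAs, 0 were called, with a median of -0.01. At an unadjusted p under 0.05, 1 was higher and 4 were lower, against 8.85% and 8.53% of all genes. The higher was Vim (0.92, SE 0.32, edgeR adjusted p = 0.096), which encodes the intermediate filament protein vimentin and had the smallest p of the list. The 4 lower were Eif3a (-0.52, SE 0.19) and Eif3e (-0.61, SE 0.22), subunits of the initiation factor eIF3, Naca (-0.67, SE 0.24), of the nascent chain complex, and Eef1d (-0.54, SE 0.20), an elongation factor subunit. Their edgeR adjusted p ran from 0.1098 to 0.127. Ribosome biogenesis had 0 of 38 called, with a median of -0.05, 4 higher and 2 lower at an unadjusted p under 0.05. Growth signalling around mTOR and the S6 kinases had 0 of 20 called, a median of 0.01 and 1 higher at an unadjusted p under 0.05. Of 73 tested mitochondrial ribosomal protein genes, which serve the separate ribosome of mitochondria, 0 were called, with a median of 0.10 and 3 higher at an unadjusted p under 0.05. For each of these counts of 0, the share called over all genes tested was 6.81%. The lists are described by these counts and medians, and their differences from the cytosolic family were not tested.

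**Figure D5:**
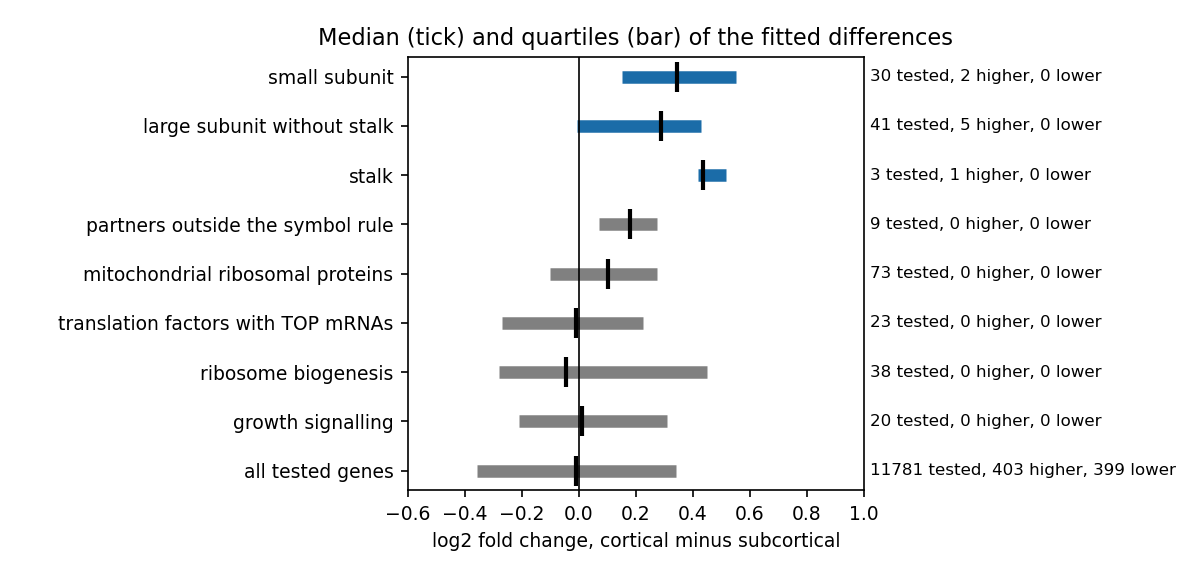
Median (tick) and quartiles (bar) of the fitted log2 fold changes, cortical minus subcortical, in each gene group, with the number tested and called at the right. The 3 groups of cytosolic ribosomal protein genes have medians of 0.35, 0.29 and 0.44, and all tested genes one of -0.01.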

How the data were processed

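RNA of 8 astrocyte libraries was prepared with a QuantSeq 3′ forward kit, per the labels' protocols. Per the submitters' processing notes the tools were STAR 2.6.0, HTSeq 0.9.0, FastQC 0.11.5 and DESeq2 1.35.0, with the build GRCm39. Raw gene counts in whole numbers were used as the authors deposited them, without the HTSeq summary rows. Reads assigned to no feature were 30.2 to 40.7% of gene, ambiguous and no-feature reads, and ambiguous ones 0.38 to 0.55%. A series-wide table of normalized values, with 8 columns that match no sample label, was not used here. Symbols and biotypes came from GENCODE M21 by gene identifier (52083 of 55417 rows).

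The main fit was edgeR 4.0.16 (R 4.3.3): filterByExpr (10 counts in 4 libraries, scaled for size, 15 in total), TMM factors and quasi-likelihood tests without a block. Alternatives used DESeq2 1.42.0, limma 3.58.1 (voom), other scalings, filters and covariates, pseudogene rows added, a mouse block and each library left out. Scaling to the summed ribosomal protein counts, and using only genes without a shared 50-base stretch or also without another gene over the end, were chosen after the data were seen. Protein length and composition were not analysed here. Code was tested on simulated counts, with changes given to genes drawn from all those tested. The main test called 33 of 97 changes with a log2 fold change of 1 in size, and 76 of 97 at 2, with 6 false calls. A gene not called can therefore still differ. Tables and figures used Python 3.11.15, pandas 2.3.3, scipy 1.17.1 and matplotlib 3.10.9.

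The members and lists were chosen with earlier results of these data known. Named in full were the 10 most abundant members, called members, the 5 highest and 5 lowest log2 fold changes, the stalk genes, paralogs, X-linked members and those that failed the filter, and up to 4 called genes of each other list. A few genes of these lists are not reported here. Rps2, Rps12, Rpl5, Rpl31, Rgs5, Pdgfrb, Vtn and the partner and TOP genes given with values were chosen after their values were seen. Mouse numbers pair the libraries, since same-numbered ones came from the same animal. Over all tested genes, what was left after taking out the region means correlated at 0.0195 to 0.0592 within a mouse and at -0.084 to 0.047 between mice. No 2 libraries of a region agreed within sampling noise (chi-square over its degrees of freedom, 11.7 to 23.7). Intervals of log2 fold changes come from the fit and include the spread between libraries, while the limits set by a count of 0 cover counting error only.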

Additional observations from a re-analysis of the deposited data

Results flagged for a closer look

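In 5 of 68 groups of 4 libraries, the highest or lowest library lay far from the other 3 by Dixon's criterion, which chance alone meets in about 1 group in 20. Rpl13 stood at 107.5 CPM in subcortical library 4 and at 87.4 to 90.3 CPM in the other subcortical libraries. Rpl22 stood at 108.6 CPM in subcortical library 1 and at 84.6 to 88.4 CPM in the others. For both genes this library lay toward the cortical levels and still below all of them. Rpsa stood at 23.4 CPM in subcortical library 3, against 13.0 to 13.7 CPM in the others. Cortical library 4 was low for 2 genes: Rps21 at 250.3 CPM, against 310.4 to 318.8 CPM, and Rps29 at 122.6 CPM, against 162.8 to 166.3 CPM. The same library had the lowest summed ribosomal protein level of the cortical libraries.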

How the results depend on the processing

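The count of 8 genes higher in cortical astrocytes was 8 to 11 in the other planned settings that kept all libraries, except raw library totals, where it was 17, and 0 genes were lower in any setting. In the planned settings with all libraries all 8 stayed called, except Rpl34 without the low-count filter. Raw totals moved the median of all genes from -0.01 to 0.19 and the share of higher calls among all called genes from 50.2 to 73.7%, and the family lay 0.34 above the median of all genes in both settings. Scaled to the summed ribosomal protein counts, the count was 1 and the family's median -0.033, since that scale takes out the common difference. Without single libraries the count was 3 to 10, and the median stayed between 0.25 and 0.36. The difference in summed share was 0.19 to 0.26 percentage points, and in summed level 1250 to 1664 CPM.

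With the mouse as a replicate block 10 genes were called, the 8 with Rps12 and Rps21. The within-mouse differences of the sums averaged 0.22 percentage points and 1399 CPM, where 4 pairs cannot give an exact sign-flip p under 0.125. Of 558 values of 31 single genes in other settings, 502 kept direction and call, 25 lost the call, 13 gained it and 18, all of uncalled genes, changed sign. The changed signs were 0.18 (raw totals) and 0.020 (pseudogene rows) for Rpl3, 0.0090 for Rpl4 and 0.15 for Rps29 (raw totals), and -0.15 (voom) and -0.054 (block) for Rps4x. Without single libraries they ran from -0.14 to 0.12 for Rpl3, -0.42 to 0.041 for Rpl4, -0.10 to 0.036 for Rps29, -0.16 to 0.31 for Rps4x, -0.54 to 0.17 for Rpl10 and -0.10 to 0.33 for Rps27l. The cause was not tested. At this depth 7 genes failed the filter and have no test.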

Other observations

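Rows of pseudogenes named after a ribosomal protein gene numbered 297, of which 141 held a count. They held 2.20 to 4.06 counts per 100 counts of the 81 genes in a library, at 3.44 ± 0.60 in cortical and 2.69 ± 0.42 in subcortical libraries (SD, n = 4), with overlapping ranges. Rpl31, with 607 counts in 24 such rows beside 2649 of its own, and Rpl14, with 475 in 1 row beside 960, had the most. These 2 genes were chosen after their values were seen. When such rows were added to the genes, Rpl31 joined the called genes.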
